A study of Mus musculus with 19 samples.

Results

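The 6 tumor organoid lines of a series of 19 mouse pancreatic ductal organoid lines were compared with each other, gene by gene, to see which expression programs set the lines apart. Organoids are cultures in which epithelial cells grow in a basement membrane gel as hollow or folded spheres. The tumor lines (tumor 3, 4 and 5 from male mice and tumor 7, 8 and 9 from female mice) came from pancreatic adenocarcinomas of C57B6/J mice with a Trp53 R172H allele switched on by Cre, itself driven by the Pdx1 promoter, which is active in the pancreatic progenitors of the embryo. As background, values are given from 7 lines of wild-type normal ducts (5 female, 2 male) and from 6 lines of ducts with PanIN, a precursor lesion (3 female, 3 male). The mice of the PanIN lines carried the same Cre but not the Trp53 R172H allele. All lines shared 1 culture medium, which held gastrin, R-spondin, noggin, EGF, FGF-10 and a TGF-beta receptor inhibitor, and RNA came from several pooled wells of a line. Each line was measured in 1 library, so the spread between lines includes the spread between cultures and libraries of one line, which was not measured. Whether some lines came from one mouse or litter is not in the labels.

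Expression was deposited as TPM, an abundance per transcript length with an equal total for each library. Of 29861 rows, 9556 had a TPM of at least 5 in 3 or more tumor lines and were kept, and 514 rows reached that level in only 1 or 2 of these lines. The spread of a gene is the SD over the 6 lines of log2(TPM + 1), a scale on which the spread of low genes is understated. An SD of 1 or more was called strongly variable. A tumor line had 11945 to 12216 genes at a TPM of 1 or more, and the correlation between 2 tumor lines over the kept genes was 0.953 to 0.990, as a description across genes. A group of 11 rows for which the authors' table gives no comparison took 16.3% (tumor 5) to 25.4% (tumor 4) of the TPM of a tumor line, which moves all other values of that line in the opposite direction. The sex of all 6 lines matched Xist and 4 genes of the Y chromosome.

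Ductal tumor cells can keep the identity of the duct or take on features of neighbouring foregut epithelia. Gastric markers such as trefoil factors and annexin A10, and intestinal markers such as Cdx2 and galectin-4, are known from early pancreatic neoplasia. Epithelial cells also make chemokines, antimicrobial proteins and complement themselves, many of them under NF-kB, and can lose epithelial for mesenchymal features. In an organoid these programs are read without the stroma and immune cells of the tumor.

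Ductal genes were expressed across the tumor lines. Of 20 ductal genes, 19 passed the filter (all but Cftr), none had an SD of 1, and their median SD was 0.28, against 0.183 for all kept genes. Epcam, an epithelial adhesion molecule, stood at 399, 394, 381, 388, 397 and 372 TPM in tumor 3, 4, 5, 7, 8 and 9, an order kept for all lists of 6 values. It was among the steadiest genes named here. Krt19, the keratin of ducts, had 796, 894, 1077, 769, 900.3 and 1053 TPM. The genes that define other cells were near 0: all 9 fibroblast, all 5 endothelial and all 8 endocrine markers stayed below a TPM of 1 in every tumor line, as did 6 of 7 leukocyte, 8 of 9 acinar and 5 of 6 tuft cell markers. The summed TPM was 0.07 to 0.19 for the fibroblast list and 1.28 to 3.05 for the leukocyte list. The exceptions were Cd68 (highest TPM 2.98), Cela1 (2.36) and Dclk1 (2.52). Foxj1, the regulator of motile cilia, was present in every line at 58.3, 47.9, 10.4, 88.2, 18.5 and 49.2 TPM, with normal lines at 42.5 to 117 and PanIN lines at 99.6 to 186. It was lowest in tumor 5 and highest in tumor 7. Of the 4 mesothelial markers Msln alone was expressed (105 to 349 TPM). In bulk RNA, fewer cells of a type and less RNA per cell cannot be told apart.

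Most genes differed little between the lines. The median SD was 0.183 and the 90th percentile 0.394, and 63 of 9556 genes (0.659%) reached an SD of 1. The same genes had a median SD of 0.173 over the normal lines (46 at an SD of 1) and 0.171 over the PanIN lines (39), but the filter was set on the tumor lines. The gene just inside the threshold had an SD of 1.00 (Axl) and the one just outside 0.992 (Snora44). The share at an SD of 1 was 0.766% below a mean TPM of 10 and 0.981% at 100 or more. Of the 63 genes, 5 were Xist and Y chromosome genes, which follow sex, and 7 were predicted genes, sequence identifiers or small nucleolar RNAs. The remaining 51 were named protein-coding or similar genes. Among those 51, the highest line was tumor 7 for 21 genes and tumor 4 for 14. The lowest line was tumor 5 for 25 genes, tumor 8 for 10 and tumor 9 for 7, and tumor 4 was lowest for none. Over all kept genes, tumor 5 was lowest for 24.2%, tumor 4 for 32.7%, tumor 8 for 8.88% and tumor 9 for 7.9%, and tumor 7 and 4 were highest for 16.4% and 16.3%. Without tumor 5 the count at an SD of 1 was 38.

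**Figure D1:**
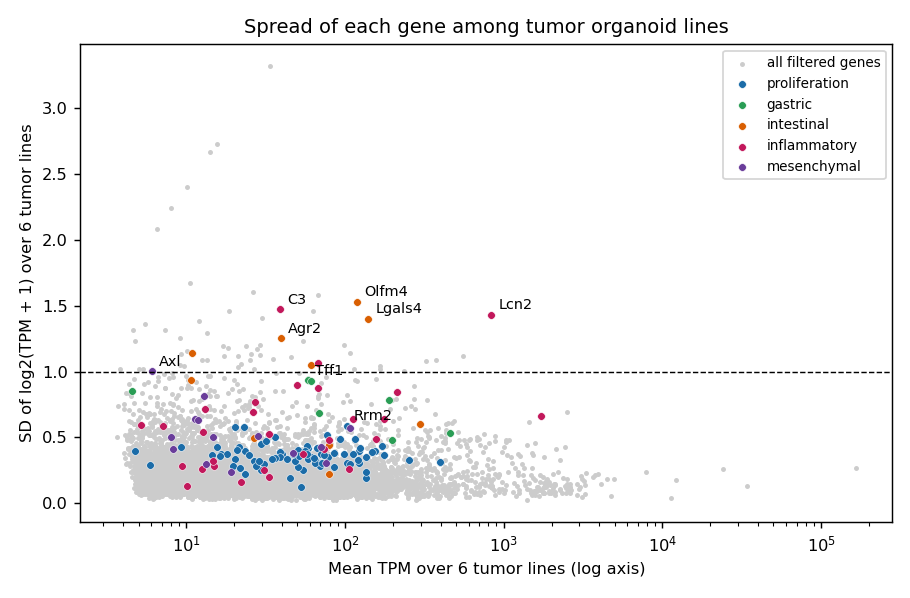
Each point is 1 of the 9556 kept genes, by its mean TPM over the 6 tumor lines (log axis) and the SD of its log2(TPM + 1) over these lines; members of the 5 programs are coloured and the dashed line marks an SD of 1. Of the programs, intestinal and inflammatory members reach past the line (5 and 3 genes), with 1 mesenchymal member just above it, while the 79 proliferation members stay between 0.12 and 0.59.

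**Figure D2:**
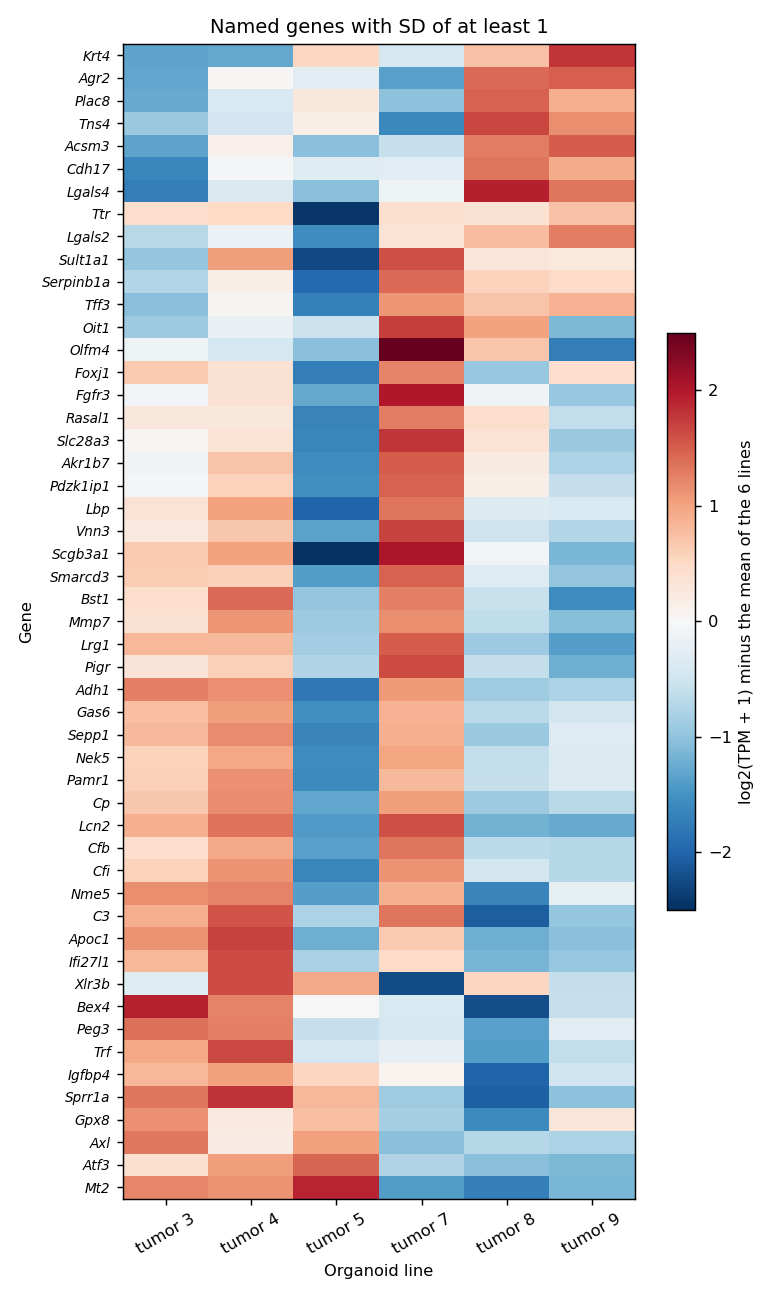
Rows are the 51 named genes with an SD of at least 1, columns the 6 tumor lines, and the colour is log2(TPM + 1) minus the mean of the 6 lines (red above, blue below); genes are ordered by likeness of their patterns. Tumor 5 is lowest for 25 of the 51 genes, and tumor 7 is highest for 21.

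Acute phase and complement genes spread the most of the lists examined. These are plasma proteins that the liver makes in inflammation and that some epithelia also secrete. Of 27 listed genes in the table only 6 passed the filter, and 5 of those 6 had an SD of 1 or more, against 0.659% of all kept genes; their median SD was 1.11, against 0.52 in normal and 0.40 in PanIN lines. The filter asked for a level, not for a difference. Cp, which encodes the copper-carrying ferroxidase ceruloplasmin, stood at 481, 683, 123, 626, 159 and 186 TPM in the 6 lines. Tumor 4 and 7 were high and tumor 5, 8 and 9 low, with tumor 3 between; normal lines held 659 to 1257 TPM and PanIN lines 387 to 887. Lbp, the lipopolysaccharide-binding protein, had 29.4, 46.7, 4.92, 58.97, 17.7 and 17.2 TPM. Cfi, the protease that inactivates C3b, had 25.3, 37.7, 4.75, 37.6, 11.9 and 9.82 TPM. The pattern of Lbp and Cfi was that of Cp, with tumor 5 at the bottom. Trf, transferrin, differed in that tumor 7 lay with the low lines: its TPM was 839, 1350.0, 318, 373, 162 and 280.0. Ttr, the thyroid hormone carrier transthyretin, set apart 1 line, with 110.3, 116, 14.2, 108, 107 and 136 TPM. Tumor 5 had less than every normal and PanIN line (lowest normal value 23.6, lowest PanIN value 92.9), and the other lines lay close together. Ambp, the precursor of a protease inhibitor and of a lipocalin, was the member below an SD of 1, at 162, 199.9, 62.6, 349.6, 93.3 and 74.3 TPM. As a score, the mean over members of log2(TPM + 1) centred on the 6 lines, the list read 0.55, 1.01, -1.47, 0.86, -0.53 and -0.41.

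Inflammatory genes followed a related order. The list holds chemokines, cytokines, NF-kB feedback genes and antimicrobial proteins. Of 45 genes in the table, 29 passed the filter and 3 reached an SD of 1 (Lcn2, C3 and Cfb), against 0.659% of all kept genes. The median SD of the 29 was 0.54, against 0.46 in normal and 0.27 in PanIN lines. Lcn2, the iron-sequestering lipocalin 2, was among the most abundant, with 1071, 1484, 215, 1760.4, 253 and 238 TPM. Tumor 3, 4 and 7 lay at 1071 TPM or more and tumor 5, 8 and 9 at 253 or less, with no line between; normal lines held 1717 to 3372 TPM and PanIN lines 603 to 1898. C3, the central complement component, had 50.9, 80.3, 14.97, 68.5, 5.59 and 13.04 TPM. Cfb, complement factor B of the alternative pathway, had 72.99, 106, 20.4, 139, 33.9 and 32.7 TPM. C3 was below every normal line (114 to 302 TPM) in all 6 tumor lines, and tumor 8 was lowest for C3 and tumor 5 for Cfb. Among these genes tumor 4 and 7 were again high.

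Chemokines and colony-stimulating factors varied less. Cxcl5, a neutrophil attractant and the most abundant chemokine of the list, had 2097, 2666, 849, 2319, 1153 and 1242 TPM. Ccl20, which attracts CCR6-bearing lymphocytes, had 143, 227, 76.9, 454, 164 and 219 TPM. Cxcl2, another ligand of CXCR2, had 41.4, 90.6, 43.5, 74.9, 14.9 and 32.2 TPM. Tumor 5 was lowest for Cxcl5 and Ccl20 and tumor 8 for Cxcl2, while the top line was tumor 4 for Cxcl5 and Cxcl2 and tumor 7 for Ccl20. Ccl2, the monocyte attractant, had its maximum in tumor 4, at 152 TPM, and its minimum in tumor 8, at 23.9 TPM. Csf2, which encodes GM-CSF, was highest in tumor 7 (53.8 TPM) and tumor 4 (40.9 TPM) and at most 18.6 TPM in the other lines. S100a9, a subunit of calprotectin, was highest in tumor 7 (23.2 TPM) and lowest in tumor 5 (6.40 TPM). Il33, an alarmin, went another way, with 20.7, 17.99, 36.4, 13.2, 19.8 and 50.7 TPM. Tumor 9 and 5, which were low for most of the list, were the highest for Il33. Over the 29 members, the highest line was tumor 7 for 14 and tumor 4 for 9, against 16.4% and 16.3% of all kept genes. The lowest line was tumor 5 for 13, against 24.2%, tumor 8 for 6, against 8.88%, and tumor 9 for 6, against 7.9%. The score read 0.09, 0.49, -0.40, 0.48, -0.36 and -0.30 in the 6 lines.

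Promoters of the inflammatory genes were read for the NF-kB consensus, a degenerate motif of 10 letters, on both strands over the 250 bases before the start site (RefSeq promoters, build GRCm38.p6; the files' own build is mm9, and genes were matched by symbol). Of 29 members 21 matched a promoter and 8 of these (38.1%) held the motif: Cxcl2, Ccl20, Cxcl1, Csf1, Nfkbia, Cxcl3, Tnfaip3 and Nfkb2. It was held by 3.90% of all 32851 promoters of the table and, per gene, by 5.48% of the kept genes that matched. A gene with several promoters was counted when any of them held the motif. The list was drawn up to include NF-kB feedback genes, so its share was partly set by the choice of members. The promoters of the chemokine genes Cxcl2 (chr5:90903649-90903898, plus strand) and Ccl20 (chr1:83116516-83116765, plus strand) are shown because they are the members with the motif that varied the most, with SDs of 0.90 and 0.84; capitals mark the match.
Cxcl2: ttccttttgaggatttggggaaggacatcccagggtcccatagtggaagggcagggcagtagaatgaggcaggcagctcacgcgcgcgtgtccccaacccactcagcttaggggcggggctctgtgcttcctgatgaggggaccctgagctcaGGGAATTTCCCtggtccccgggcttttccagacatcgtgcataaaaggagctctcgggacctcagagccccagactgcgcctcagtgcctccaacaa
Ccl20: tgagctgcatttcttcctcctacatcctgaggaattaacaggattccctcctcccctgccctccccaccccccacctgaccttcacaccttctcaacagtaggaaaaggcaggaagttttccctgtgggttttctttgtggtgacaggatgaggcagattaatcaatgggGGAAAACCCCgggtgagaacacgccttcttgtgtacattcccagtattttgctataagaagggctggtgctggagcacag
The capitals in Cxcl2 cover 2 matches, one on each strand, that are offset by 1 base. A match is a description of the letters and was not tested as a binding site. The motif did not single out the widest members, since Lcn2, C3 and Cfb are not among the 8.

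Proliferation genes all stayed below an SD of 1, but their median spread was above that of all kept genes. Nearly all members had the same lowest line. All 79 genes of the replication and mitosis lists passed the filter, none reached an SD of 1, and the median SD was 0.36, against 0.183 for all kept genes; it was 0.48 in normal and 0.37 in PanIN lines. Rrm2, the regulatory subunit of ribonucleotide reductase, had 68.6, 54.3, 133, 80.7, 141 and 137 TPM and was the widest member. Mcm5, a subunit of the replicative helicase, had 57.6, 40.8, 106, 71.98, 101 and 84.7 TPM. Mki67, the Ki-67 antigen gene, had 106, 85.5, 153, 115, 135 and 142 TPM. Tumor 4 was lowest for these 3 genes, and tumor 5, 8 and 9 were above tumor 3, 4 and 7. For Rrm2, normal lines held 28.5 to 69.2 and PanIN lines 40.1 to 114 TPM. Tumor 4 was lowest for 78 of the 79 members (38 of 39 replication and 40 of 40 mitosis genes), against 32.7% of all kept genes. The highest line was tumor 5 for 41 members, tumor 8 for 30 and tumor 9 for 8, against 22% of all kept genes for tumor 5, 22.7% for tumor 8 and 16.2% for tumor 9. The summed TPM of the 79 genes was 4696, 3518, 6604, 5076, 6514 and 6071, and the score -0.17, -0.58, 0.31, -0.06, 0.30 and 0.19. Under 3 other scalings (rescaled TPM, median of ratios and quantiles) tumor 4 kept the lowest score, at -0.54 to -0.51. Without tumor 4 the median SD of the list was 0.233. Among genes that act against cycling, Cdkn1a (p21) had 46.96, 39.9, 42, 25.9, 22.3 and 29.6 TPM and Cdkn2a (p16 and p19) 86.03, 129, 104, 80.8, 111 and 86.3 TPM. All 3 male lines lay above all 3 female lines for Cdkn1a, and tumor 4 was highest for Cdkn2a. Trp53, altered by a point mutation whose presence the TPM does not show, had 63.5, 56.2, 69.9, 69.02, 86.4 and 73.7 TPM.

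Cell cycle genes are known for CCAAT boxes and for the CHR element TTTGAA near their starts. Of the 79 members 65 matched a promoter. CCAAT, searched on both strands in the same window, was found in 46 of the 65 (70.8%), against 33.8% of all promoters and 41.6% of the kept genes that matched. A high share was not particular to this list. Among genes that matched, CCAAT was found in 5 of 7 intestinal (71.4%), 4 of 7 mesenchymal, 2 of 4 gastric and 2 of 2 acute phase genes. For inflammatory genes it was 3 of 21 (14.3%). TTTGAA was found in 18 of the 65 (27.7%), against 16.0% of all promoters and 12.5% of the kept genes that matched. The promoter of Top2a, the DNA topoisomerase II alpha gene that untangles chromosomes before mitosis, is shown (chr11:99024190-99024439, minus strand, GRCm38.p6). None of the members ranked held more CCAAT matches, but promoters on a single chromosome were left out of that ranking. Capitals mark 6 CCAAT matches and 2 TTTGAA matches, on either strand. Ube2c also held 6 CCAAT matches, with 1 TTTGAA match.
Top2a: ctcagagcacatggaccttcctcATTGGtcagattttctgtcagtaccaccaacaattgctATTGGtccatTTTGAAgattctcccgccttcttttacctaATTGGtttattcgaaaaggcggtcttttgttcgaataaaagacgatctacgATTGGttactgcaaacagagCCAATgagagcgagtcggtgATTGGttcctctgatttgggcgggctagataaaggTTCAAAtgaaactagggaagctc
Top2a stood at 231, 162, 297, 251, 289.7 and 284 TPM, with tumor 4 lowest and tumor 5 highest.

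Most of the intestinal list failed the filter, and the genes that passed it ranged from steady to widely variable, with SDs of 0.22 to 1.53. Of 49 genes, 39 did not pass the filter, and 31 stayed below a TPM of 1 in every tumor line. Among those were Muc2 (at most 0.09 TPM in a tumor line) and Fabp1, listed at 0 in every tumor line. Of the 10 that passed, 5 reached an SD of 1 (Olfm4, Lgals4, Agr2, Tff3 and Cdh17), against 0.659% of all kept genes. The median SD of the 10 was 0.99, against 0.65 in normal and 0.46 in PanIN lines. A lower filter, at a TPM of 1, gave a median SD of 0.616. Cdx2, the transcription factor that specifies intestine, had 3.78, 5.62, 6.11, 7.32, 22.9 and 18.9 TPM. Lgals4, galectin-4, a lectin of the intestinal brush border, had 27.6, 72.9, 45.1, 86.7, 368 and 239 TPM. Cdh17, the liver-intestine cadherin, had 15.3, 47.7, 39.6, 40.9, 127 and 94.4 TPM. Tumor 8 and 9 were the highest for these 3 genes, tumor 3 was the lowest, and normal lines held 0.92 to 3.27 TPM of Cdx2 and 7.26 to 78.6 of Lgals4. For Cdx2 and Lgals4 every female line lay above every male line. That order held for 4 of the 10 members (also for Tff3 and Hnf4a), against 16.1% of all kept genes, and the reverse for 0 of 10, against 6.15%. Agr2, which helps to fold secreted mucins, had 11.1, 29.4, 23.4, 10.7, 78.4 and 83.5 TPM. Tumor 8 and 9 were high again, but tumor 7 was lowest.

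Other members of the intestinal list did not keep to that order. Olfm4, a secreted protein of intestinal stem cells, had 62.7, 50.8, 32.8, 434, 113 and 20.1 TPM and the widest spread of the list. Tumor 7 stood alone at the top and tumor 9 at the bottom, and normal lines reached 30.8 TPM and PanIN lines 157. Tff3, the trefoil factor of goblet cells, had 3.58, 8.88, 1.92, 19.4, 14.5 and 16.3 TPM. Tumor 7, 8 and 9 lay above tumor 3, 4 and 5 for Tff3, but normal lines ranged as widely, from 0.55 to 41.03 TPM. Hnf4a, a transcription factor of gut and liver, varied less (62.0 to 96.2 TPM), as did the actin bundler gene Vil1 (47.0 to 110.3 TPM). The score read -0.84, -0.12, -0.65, 0.23, 0.89 and 0.48.

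Gastric genes did not move as one program. Of 25 genes, 7 passed the filter, none reached an SD of 1, and the median SD was 0.79, against 0.64 in normal and 0.90 in PanIN lines. The count at an SD of 1 was 1 with a pseudocount of 0.1 and without tumor 3, 4 or 8, and 2 without tumor 9. Tff1, the trefoil factor of the gastric surface, had 77.6, 76.4, 85.7, 23.1, 19.8 and 67.5 TPM. Anxa10, annexin A10, had 6.48, 5.22, 7.29, 2.24, 0.8 and 5.20 TPM. Tumor 3, 4, 5 and 9 lay above tumor 7 and 8 for both genes. Anxa10 reached a TPM of 5 only in these higher lines, so its order was partly set by the filter. Normal lines held 1.91 to 30.1 TPM of Tff1 and 0.33 to 1.46 of Anxa10. Tff2, the trefoil factor of mucous neck cells, had 96.3, 102, 45.8, 79.1, 29.3 and 57.1 TPM. Sult1c2, a sulfotransferase, had 59.4, 57.1, 15.3, 115, 56.3 and 61.4 TPM. Ctse, the gastric aspartic protease cathepsin E, had 402, 587, 278, 752, 421 and 326 TPM. Tumor 8 was low for Tff2, tumor 5 was lowest for Sult1c2 and Ctse, and tumor 7 was highest for those. Aqp5, a water channel, was ordered otherwise, with 112, 81.7, 159, 149, 252 and 373 TPM. Tumor 9 and 8 were highest for Aqp5, and every tumor line was above every normal line (12.1 to 43.3 TPM). Muc1, a membrane mucin, went from 105 TPM in tumor 5 to 291 in tumor 7. Of the 25 genes, 10 stayed below a TPM of 1 in every tumor line, among them Muc5ac (at most 0.16 TPM) and Muc6 (at most 0.06 TPM). Others that failed the filter were higher, such as Vsig1 with 12.03 TPM in tumor 9. The score read 0.22, 0.16, -0.31, 0.14, -0.46 and 0.24, with tumor 5 and 8 apart from the other 4 lines.

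Mesenchymal genes were mostly not expressed. Of 49 genes, 35 did not pass the filter, among them the transcription factor genes Zeb1 (at most 0.11 TPM), Snai2 (0.02) and Twist1 (0.90), the cadherin gene Cdh2 (0.30) and the actin gene Acta2 (0.11). Vim, which encodes vimentin, also failed it, with 1.23, 3.91, 1.58, 0.46, 5.61 and 0.15 TPM. Of the 14 that passed, Axl alone reached an SD of 1, against 0.659% of all kept genes. The median SD of the 14 was 0.50, against 0.40 in normal and 0.45 in PanIN lines. Axl, a receptor tyrosine kinase for Gas6, had 13.4, 5.65, 10.8, 1.79, 2.53 and 2.36 TPM. Tumor 3 and 5 were high, the female lines low, and normal lines held 3.95 to 11.6 TPM. S100a4, a calcium-binding protein, had 9.44, 8.53, 12.2, 4.16, 21.7 and 21.3 TPM. Col4a1, a basement membrane collagen, had 18.7, 33.4, 22.6, 19.3, 48.6 and 26.7 TPM. Tumor 8 was highest for both, so these did not follow Axl. Fn1, fibronectin, had 10.1, 13.1, 7.82, 4.52, 5.31 and 6.83 TPM. For Fn1 the 3 male lines were above the 3 female lines. Such an order held for 6 of the 14 members, among them Fn1, Loxl2, Cald1, Axl and Mmp14. Over all kept genes the male lines lay above the female lines for 6.15%. The reverse order held for 0 of 14, against 16.1%. Axl reached a TPM of 5 only in the 3 male lines, so passing the filter had already fixed its order. The score read 0.13, 0.31, 0.25, -0.41, -0.12 and -0.16. The summed fibroblast markers, at 0.19 TPM or less, were low in all 6 lines.

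**Figure D3:**
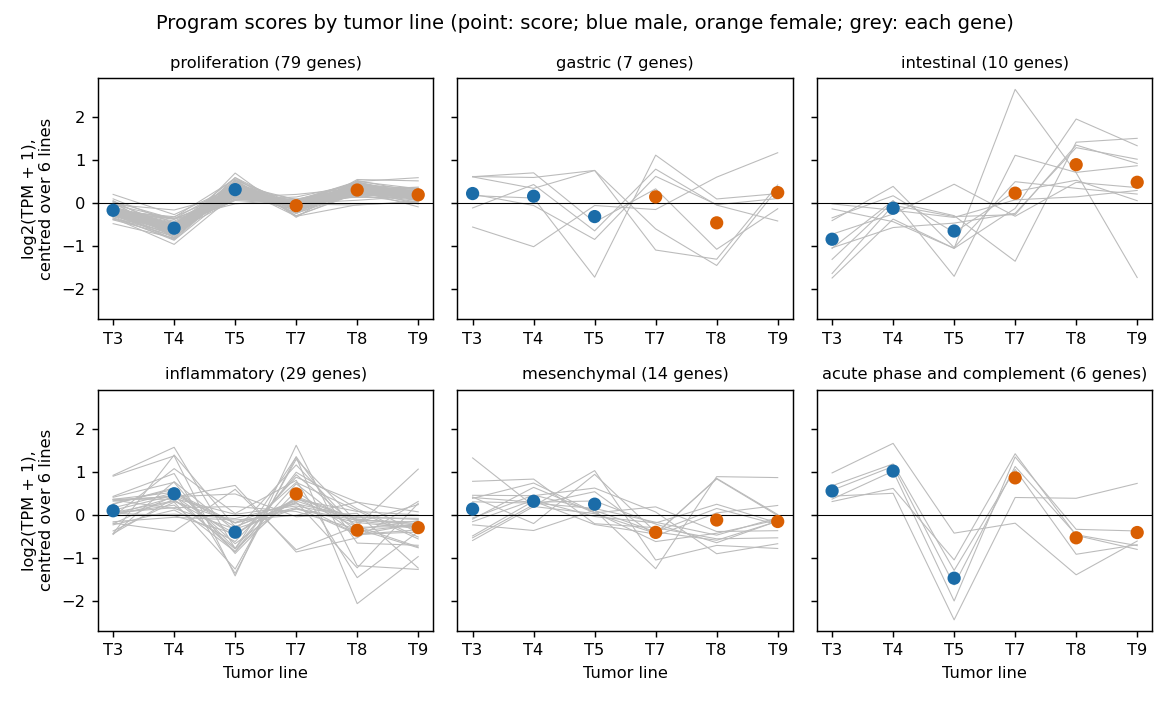
For each of 5 programs and the acute phase list, grey lines give log2(TPM + 1) of every kept member centred on the mean of the 6 lines, and points give the score, which is the mean of the members (blue for male, orange for female lines). The proliferation members lie close together, with tumor 4 lowest at -0.58, whereas gastric members cross.

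The scores were then set against each other over the 6 lines, with an exact permutation test (two-sided, all orders of the 6 lines) and Benjamini-Hochberg adjustment over 10 pairs. No pair passed at an adjusted p of 0.05. The strongest was that of proliferation and inflammation: Pearson's r was -0.865 (exact permutation p = 0.0236, adjusted p = 0.236) and Spearman's rho -0.943 (exact permutation p = 0.0167, adjusted p = 0.167). Without tumor 4 and 5, the lines farthest from the median of the proliferation score, r was -0.803. The lines with the lowest proliferation scores, tumor 4, 3 and 7, had the highest inflammatory scores, and the reverse held for tumor 5, 8 and 9. Both scores also went with the share of TPM in the 11 rows without a comparison: rho was -1 for proliferation (exact permutation p = 0.00278, the smallest these orders can give; adjusted p = 0.0139 over 5 scores) and 0.943 for inflammation (exact permutation p = 0.0167, adjusted p = 0.0417). The matching Pearson values were -0.892 (exact permutation p = 0.0153, adjusted p = 0.0764) and 0.797 (exact permutation p = 0.0708, adjusted p = 0.125). With these rows left out and TPM rescaled, r of proliferation and inflammation was -0.878 (exact permutation p = 0.0111 before adjustment). The proliferation score then ran from -0.51 in tumor 4 to 0.25 in tumor 8.

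The column headers carry library identifiers of 3 series, a possible batch. Tumor 4 is the only tumor line of the first, tumor 5, 7 and 8 belong to the second and tumor 3 and 9 to the third, too few lines for a correlation within a series. Within the second series, tumor 7 had the highest inflammatory score (0.48) and the lowest proliferation score (-0.06). Within the third, tumor 3 was above tumor 9 in inflammation (0.09 and -0.30) and below it in proliferation (-0.17 and 0.19). Lcn2 spanned 215 to 1760.4 TPM within the second series.

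**Figure D4:**
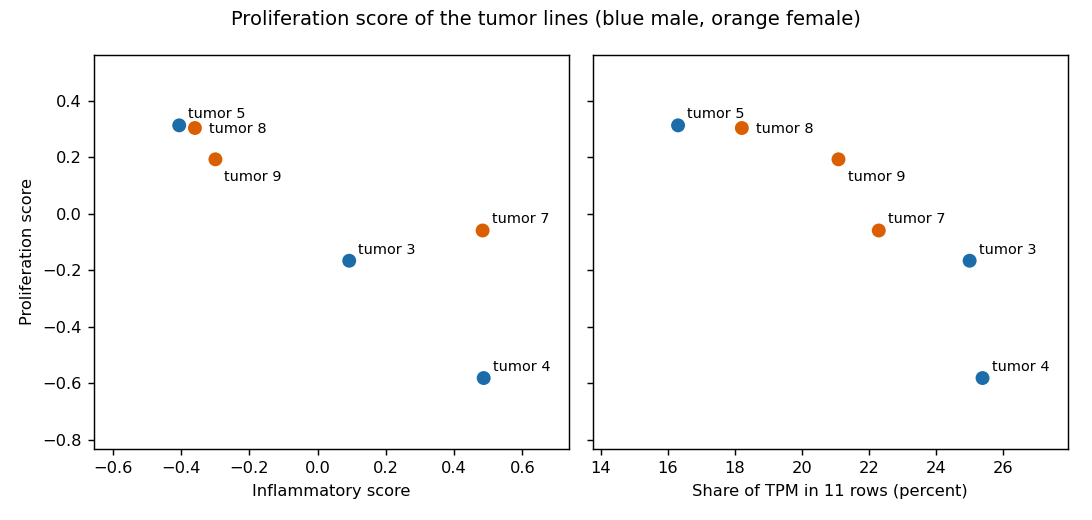
Each point is a tumor line (blue male, orange female), with its proliferation score on the vertical axis against its inflammatory score (left) and the share of its TPM in the 11 rows without a comparison (right, in percent). Tumor 5, 8 and 9 lie above 0 and to the left in both panels and tumor 4, with a score of -0.58, at the lower right.

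The other pairs were weaker. For intestinal and mesenchymal scores r was -0.636 (exact permutation p = 0.175, adjusted p = 0.597) and rho -0.543 (exact permutation p = 0.297, adjusted p = 0.991), and r was -0.730 without tumor 3 and 8. Both scores split by sex. Intestinal scores were -0.84 to -0.12 in male and 0.23 to 0.89 in female lines, mesenchymal scores 0.13 to 0.31 and -0.41 to -0.12. Within each sex the lines had the same order in both scores. The negative r thus cannot be told apart from labelled sex. For proliferation and intestinal scores r was 0.309 (exact permutation p = 0.554, adjusted p = 0.877) and rho 0.314 (exact permutation p = 0.564, adjusted p = 1). That r was 0.907 without tumor 4 and 5, so it depended on which lines were included. Proliferation and mesenchymal scores gave r = -0.356 (exact permutation p = 0.492, adjusted p = 0.877; rho -0.2, p = 0.714, adjusted p = 1), and r was -0.189 without the same lines and 0.373 without tumor 4 alone. Intestinal and inflammatory scores gave r = -0.164 (exact permutation p = 0.740, adjusted p = 0.901; rho -0.143, p = 0.803, adjusted p = 1) and 0.245 without tumor 3 and 8. Inflammatory and mesenchymal scores gave r = -0.0735 (exact permutation p = 0.908, adjusted p = 0.908; rho 0.0286, p = 1, adjusted p = 1) and 0.205 without tumor 4 and 7. The gastric score is not read as a relation, because tumor 5 and 8 formed a cluster of their own: the gap to the other 4 lines was 0.652 of the range of the score, and a gap over 0.5 was taken to mark clusters. The gaps of the other 4 scores were 0.306 to 0.464 of their range. Tumor 5 was low in intestinal (-0.65) and inflammatory scores (-0.40), and tumor 8 was high in the intestinal (0.89) and low in the inflammatory score (-0.36).

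In a principal component decomposition of all kept genes, component 1 accounted for 52.1% and component 2 for 28.5% of the variance. On component 1 the lowest positions were those of tumor 4 (-26.5), tumor 3 (-14.8) and tumor 7 (-10.9), and tumor 9, 5 and 8 took 13.7, 18.1 and 20.3. Component 2 set tumor 5 (21.7) against tumor 7 (-18.6). Without Xist and the Y chromosome genes component 1 accounted for 53.8%, with tumor 4 at -25.6 and tumor 5 at 19.9. Among the genes with the largest loadings were Lcn2, C3, Lrg1 and Adh1 towards tumor 4, 3 and 7. At the other end stood Lgals4, Agr2, Cdx2, Plac8, Tns4 and Anxa8. Tns4, a focal adhesion protein, had 2.94, 4.37, 7.41, 1.46, 22.9 and 15.7 TPM. Plac8 had 108, 199, 312, 126, 718 and 483 TPM. Tumor 8 was highest and tumor 9 second for both genes. Tns4 reached a TPM of 5 only in tumor 5, 8 and 9, and Adh1 only in tumor 3, 4 and 7. For these genes passing the filter had already fixed which lines were high.

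Labelled sex is the only label that divides the tumor lines. A limma test of 3 male against 3 female lines called 9 of 9556 genes (0.0942%), of which 7 were higher in male and 2 in female lines; 1477 genes had an unadjusted p under 0.05. Besides Xist and 4 Y chromosome genes, the calls were Mt2, Insig1 and Nr1d2, higher in male lines, and the predicted gene Gm14326, higher in female lines. Mt2, a metallothionein that binds zinc and copper, had 100.2, 93.9, 163, 15.5, 12.4 and 18.7 TPM. All 3 male lines stood above all 3 female lines (log2 difference, male minus female, 2.83, SE 0.24, limma adjusted p = 0.0139), while normal lines ranged from 14.6 to 96.6 TPM. Insig1, which restrains sterol synthesis, differed by 1.13 (SE 0.088, limma adjusted p = 0.00948) and Nr1d2, a nuclear receptor of the circadian clock, by 0.91 (SE 0.096, limma adjusted p = 0.0440). The male and female lines did not overlap for 22.3% of kept genes. The number of calls was 1 without tumor 3 or without tumor 4, 4 without tumor 8 and 5 without tumor 9.

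Tumor 5 was also highest for most hypoxia genes and for single stress genes. Atf3, a stress-induced transcription factor, had 17.7, 28.4, 37.98, 7.47, 5.90 and 5.53 TPM. Ddit3, which encodes CHOP, had 10.5, 20.4, 34.04, 7.75, 5.72 and 5.79 TPM and Slc7a11, the cystine transporter, 24.9, 30.1, 65.8, 11.98, 18.7 and 31.9 TPM. Tumor 5 was highest for all 3 genes; Ddit3 and Slc7a11 were chosen after their values were seen. Of the 17 kept immediate early and heat shock genes, a list that holds Atf3, tumor 5 was highest for 4, against 22% of all kept genes. Of 24 hypoxia and glycolysis genes 23 passed the filter, none reached an SD of 1, and tumor 5 was highest for 14, against 22% of all kept genes. Ldha, lactate dehydrogenase A, had 1409, 1470.5, 1974, 1339.8, 1373 and 1348 TPM. Bnip3, a mitophagy receptor, had 86.2, 102, 93.3, 64.5, 26.9 and 31.4 TPM and Ndrg1 31.01, 46.8, 48.5, 28.2, 11.9 and 10.1 TPM. For Bnip3 and Ndrg1 the male lines were above the female lines, an order that held for 8 of the 23 genes, against 6.15% of all kept genes. Sprr1a, a cornified envelope protein of squamous cells, had 201, 279, 142, 42.4, 18.5 and 38.2 TPM, and Krt4, a keratin of stratified epithelium, 0.69, 0.74, 5.07, 2.11, 5.99 and 13.7 TPM. Sprr1a was highest in the male lines and Krt4 in tumor 9, so the 6 of 20 squamous genes that passed the filter did not share one order. Krt4 reached a TPM of 5 only in tumor 5, 8 and 9, so passing the filter had already set these above the other lines.

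The median SD was 0.17 for cholesterol and fatty acid synthesis (25 of 25 genes passed), near the 0.183 of all kept genes, and higher for p53 targets (28 of 31, 0.24) and for immediate early and heat shock genes (17 of 22, 0.29). In these 3 lists Atf3 alone reached an SD of 1. Interferon and MHC genes (14 of 42 passed, none at an SD of 1, median SD 0.36) were highest in tumor 7 for 8 and in tumor 4 for 5 members. The shares over all kept genes were 16.4% for tumor 7 and 16.3% for tumor 4. B2m, the light chain of MHC class I molecules, had 402, 455, 205, 456, 265 and 248 TPM. Tumor 5, 8 and 9 were lower than tumor 3, 4 and 7, as for Lcn2. Of 38 xenobiotic and NRF2 genes 28 passed, and Adh1 alone reached an SD of 1, against 0.659% of all kept genes. Adh1, alcohol dehydrogenase, had 13.7, 12.7, 0.79, 12, 2.33 and 2.56 TPM. It reached a TPM of 5 only in tumor 3, 4 and 7, so passing the filter had already fixed these as its high lines. Wnt targets (8 of 17 passed) had a median SD of 0.36.

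To ask whether tumor lines as a group differed more among themselves than other lines, the distance of each line from the mean of its own group was taken over 10010 genes. Tumor lines had a mean distance of 0.288 ± 0.0422 (SD, n = 6), normal lines 0.275 ± 0.0315 (SD, n = 7) and PanIN lines 0.262 ± 0.0779 (SD, n = 6). Neither difference was beyond the spread between lines (exact permutation p = 0.543 against normal and 0.496 against PanIN lines, adjusted p = 0.543 for both, two-sided). Among tumor lines, tumor 4 and 5 were farthest from the mean (0.338 and 0.335), and PanIN 6 was farther than any tumor line (0.396). The comparison with PanIN lines leaned on PanIN 6. Without it the difference, tumor minus PanIN, was 0.0636 instead of 0.0264 (exact permutation, adjusted p = 0.121).

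**Figure D5:**
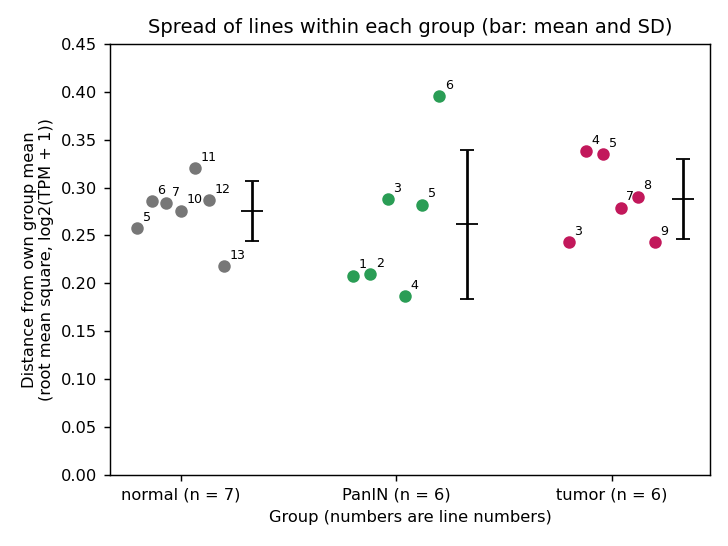
The root mean square distance of each line from its own group's mean on the log2(TPM + 1) scale, with the mean and SD of each group as a bar beside it; numbers are line numbers. The 6 tumor lines lie between 0.243 and 0.338, and the PanIN lines between 0.187 and 0.396. PanIN 6 alone sets the upper end of the PanIN range, and the next PanIN line is at 0.288.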

How the data were processed

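Total RNA of 19 organoid lines was sequenced after removal of ribosomal RNA, per the labels' protocols. The authors deposited TPM per gene, made with RSEM 1.2.11 and Bowtie 1.1.0 on build mm9 per the submitters' processing notes; no source used here names the gene annotation. The deposited signal column, a base mean of DESeq output per the file headers, was used only to find the 11 rows without a comparison. TPM keeps no depth, so the reads behind a value are unknown and no counting interval is given.

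Values were taken as log2(TPM + 1) for genes with a TPM of at least 5 in 3 or more tumor lines. Program scores are means of centred values; pairs were tested by exact permutation with Benjamini-Hochberg adjustment. Labelled sex was tested with limma 3.58.1 (R 4.3.3, eBayes with trend). P-values thus cover the spread of lines only. The test functions were tested on simulated data. Python 3.11.15 with numpy 2.4.6, pandas 2.3.3, scipy 1.17.1 and matplotlib 3.10.9 was used. Alternatives were pseudocounts of 0.1 and 5, filters at 1 and 10 TPM, 3 scalings, other scores, limma without trend and leaving out each line.

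The members and gene lists were chosen with earlier results of these data known. The naming rule took the 8 widest members of each program, the 30 widest genes, the 3 widest of each other list, the 15 largest loadings at each end of the first component, genes called for sex, genes with 1 line apart and 8 marker genes. Other genes named were chosen after their values were seen. Some alleles and genes are not reported here. Promoters came from RefSeq (GRCm38.p6).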

Additional observations from a re-analysis of the deposited data

Results flagged for a closer look

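Among 103 named genes, 2 had 1 tumor line far from the other 5. Sult1c2 stood at 15.28 TPM in tumor 5 and at 56.3 TPM or more in the other lines. Ttr stood at 14.24 TPM in tumor 5 and at 106.6 TPM or more in the others. By chance such a gap appears in about 1 of 20 groups, and over all kept genes it was seen in 316 of 9556 (3.31%).

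Some genes that failed the filter, because they reached a TPM of 5 in only 1 or 2 tumor lines, were nonetheless above every normal and PanIN line in 1 tumor line. In tumor 8 these were Prkg2 (27.53 TPM), Cwh43 (16.95 TPM), Il5ra (13.13 TPM), Xlr4b (12.73 TPM), Bmp8b (11.93 TPM), Fst (11.35 TPM) and Otop1 (11.15 TPM). In tumor 7 they were Sult1d1 (15.07 TPM), Ppp1r3c (13.03 TPM), Cyp4b1 (12.88 TPM), Trim46 (11.93 TPM), Hunk (10.19 TPM) and Rapgef3 (10.16 TPM). In tumor 9 they were Aldh3a1 (15.59 TPM), an aldehyde dehydrogenase, and the gastric junction gene Vsig1 (12.03 TPM). Each value comes from 1 library.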

How the results depend on the processing

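The count of genes at an SD of 1 was 63. It was 24 with a pseudocount of 5, 91 with one of 0.1, 85 with a filter at 1 TPM, 83 rescaled, and 38 (without tumor 5) to 69 with 1 line left out. Calls for sex were 1 to 7 when 1 line was left out. Proliferation and inflammatory scores correlated at -0.999 to -0.806 over 16 other settings (adjusted p 0.0833 to 0.917). By Pearson's r, no pair of scores passed an adjusted p of 0.05 in any setting run, and these weak values changed sign: proliferation and mesenchymal with 1 line left out (-0.665 to 0.373); intestinal and inflammatory (-0.489 to 0.167). Inflammatory and mesenchymal scores gave 0.182 with a filter at 1 TPM, 0.115 rescaled, 0.0487 with median-of-ratios scaling, 0.0594 with quantiles, 0.161 with medians as scores, 0.124 after subtracting the median of all kept genes (added after seeing the data) and -0.725 to 0.602 with 1 line left out. The gastric score, not read as a relation, kept its sign over 16 other settings with the proliferation (r = -0.625, others -0.828 to -0.499) and inflammatory scores (r = 0.612, others 0.466 to 0.863), at adjusted p of 0.181 to 0.917 for both, but its r with inflammation was -0.961 over the 4 lines other than tumor 5 and 8. With the intestinal score it gave 0.113 with a filter at 10 TPM, 0.00210 rescaled, 0.163 with medians and -0.653 to 0.446 with 1 line left out. With the mesenchymal score it gave 0.0300 rescaled, 0.0285 with median-of-ratios scaling, 0.114 after subtracting that median and -0.387 to 0.114 with 1 line left out. The distance of tumor lines minus that of normal lines was -0.000823 to 0.0221 with 1 line left out. Against PanIN lines it was 0.00847 (without PanIN 4) to 0.0636 (without PanIN 6). The cause of these changes was not tested. Axl fell under an SD of 1 with a pseudocount of 5 and without tumor 7. With a filter at 10 TPM, and without tumor 3, 4 or 5, it failed the filter. Depth is unknown, so low genes could not be weighted by reads. No paired analysis was possible because line numbers only name separate lines and the tumor lines were compared among themselves.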

Other observations

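Several genes of the gastric and intestinal lists failed the filter and still differed between tumor lines. They are given as values, chosen after they were seen. Gkn2, a gastrokine of the gastric surface, had 3.26, 3.68, 0.92, 3.41, 0.19 and 0.14 TPM in tumor 3, 4, 5, 7, 8 and 9, and Gkn1 had 1.83, 2.03, 0.5, 2.18, 0.21 and 0 TPM. Tumor 3, 4 and 7 were high for both, and no normal or PanIN line was above 0.07 TPM for Gkn2 or 0.04 TPM for Gkn1. Spdef, the transcription factor of goblet and other secretory cells, had 1.98, 1.73, 1.33, 1.07, 5.72 and 3.36 TPM. Tumor 8 and 9 were highest, as for Cdx2 and Agr2, and every tumor line was above every normal line (0.02 to 0.27 TPM) and PanIN line (0.08 to 0.54 TPM). Lgr5, the Wnt-dependent stem cell receptor, had 4.55, 2.61, 6.27, 2.77, 2.60 and 3.59 TPM. Tumor 5 was highest for Lgr5, but a normal line reached 14.2 TPM.

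Lars2, which encodes the mitochondrial leucyl-tRNA synthetase, had 118, 2.18, 4.23, 2.90, 2.45 and 38.6 TPM. Tumor 3 and 9, which share the third identifier series, were above the other 4 lines, and a normal line reached 743 TPM.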
